A study of Mus musculus with 12 samples.

Results

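The comparison described here is the early transcriptional response of Dnmt3a/b double-knockout mouse embryonic stem (ES) cells to inhibition of the mTOR kinase (mTORi). It sets the 2 libraries labelled E14 DNMT3ABKO at 72 hours against the 2 libraries labelled E14 DNMT3ABKO at 0 hours, which are 4 of the 12 libraries in the series. Members were taken by their labels alone, and genes were tested where their mean level over these 4 libraries reached 1 TPM (transcripts per 1000000), which 15629 did. The cells of all 4 libraries lacked both de novo DNA methyltransferases, so the 0 h group is the untreated knockout and not a wild-type control. The 72 h group had been kept for 72 h in INK128, a catalytic-site inhibitor of mTOR. The 4 libraries labelled E14 KH at 0 and 72 h are the wild-type counterpart at the same times, and serve as a reference level and in the test of whether the knockout response differed. The lines are called DNMT3ABKO and KH below.

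Dnmt3a and Dnmt3b place new methyl groups on cytosines, whereas Dnmt1 copies existing methylation after replication, and methylated promoters keep germline genes silent in ES cells. mTOR joins nutrient and growth factor signals to protein, lipid and nucleotide synthesis. Its inhibition brings ES cells and blastocysts into a reversible pause that resembles embryonic diapause, the natural arrest of the mammalian embryo before implantation.

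Several features limit what the 4 libraries can show. Each genotype was represented by 1 line, and no DNMT3ABKO culture was held for 72 h without inhibitor, so treatment and time in culture cannot be told apart. The study states that its experiments were repeated independently, but the labels do not say whether the 2 libraries of a group came from separate cultures, so p-values measure only the spread between these libraries, part of which may be technical. The methods put wild-type KH2 and Dnmt3a/b knockout cells on feeders, a layer of arrested fibroblasts, and lines of E14 background on gelatin without feeders, whereas the labels give E14 for both lines. Whether these cultures held feeders is therefore not settled by the sources used here. Viable single cells were sorted. TPM are relative shares, and the libraries summed to 1000000 each, so fewer cells of one type and less RNA per cell cannot be told apart. By spike-in normalisation the study reports that global transcription fell in Dnmt3a/b knockout cells under mTORi. The values used here hold no spike-in rows, so rose and fell below refer to shares, not to amounts per cell. Read depth is unknown.

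The 2 untreated libraries stood apart from each other more than other replicates did. The residual SD on the log2(TPM + 1) scale was 0.272 at 0 h and 0.138 at 72 h, against 0.178 and 0.133 in KH cells. A gap of more than 1 on that scale separated the 0 h replicates for 204 genes and the 72 h replicates for 60 genes. Gm26917, the most abundant transcript, took 12.5% of TPM in 0 h replicate 1 and 7.59% in 0 h replicate 2, against 9.22% and 10.1% at 72 h. Summed TPM of the 13 protein-coding mitochondrial genes was 6721 in 0 h replicate 1, 19050 in 0 h replicate 2 and 26540 and 23400 at 72 h. Each change below was therefore read against both 0 h replicates. Where 1 library was left out below, its group added nothing to the estimated spread. Without a 72 h library the knockout spread therefore rested on the wider 0 h pair alone.

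The targeted genes were examined first. Dnmt3a (mm10 chr12:3806007-3914443) stood at 11.6 and 7.35 TPM at 0 h and at 14.4 and 10.2 TPM at 72 h, against 54.7 to 62.7 TPM in the 4 KH libraries. Dnmt3b (chr2:153649450-153687730) stood at 26.2 and 27.5 TPM at 0 h and at 25.9 and 24.1 TPM at 72 h, against 173 to 258 TPM in KH cells. All knockout libraries lay below all KH libraries for both genes, with mean log2 differences of -2.36 and -2.99. An exact two-sided permutation within time points gave p = 0.0556 for each, the smallest p its 36 assignments allow. Within the knockout the 0 and 72 h libraries overlapped for Dnmt3a (log2 fold change 0.36 ± 0.25 SE, adjusted p = 0.291). For Dnmt3b both 72 h values lay just below both 0 h values, and the change of -0.10 ± 0.11 did not pass (adjusted p = 0.506). The reads that remained were not assigned to exons here.

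ES cell identity was checked with 8 markers, which were present in all 4 libraries. Pou5f1, the defining pluripotency factor, stood at 865 and 786 TPM at 0 h and at 1086 and 1109 TPM at 72 h. Markers of other cells were present too. The 14 tested of 15 fibroblast markers summed with the untested Lum to 2367 and 2312 TPM at 0 h and to 478 and 438 TPM at 72 h, and all 14 fell. Of 10 macrophage markers 8 fell, with sums of 245 and 271 TPM at 0 h and 123 and 129 TPM at 72 h. All 5 smooth muscle markers fell, with sums of 912 and 1064 TPM and then 325 and 295 TPM. Over all tested genes 38.1% were called and 15.3% fell, at the threshold given below. KH cells showed median log2 fold changes of -1.84, -0.50 and -1.40 for the same lists. Of the members 1, S100a4, had a called difference between lines, against 1.83% of all genes. That call was lost with the replicate number as a block (adjusted p = 0.126). The part of these cells in the results below was not tested.

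Gene expression changed widely. By limma with Benjamini-Hochberg adjustment over all 15629 genes, 3561 genes (22.8%) rose and 2387 (15.3%) fell, which is 38.1% of genes called at an adjusted p under 0.05. Both 72 h libraries lay beyond both 0 h libraries for all 5948 called genes, and for 73.6% of all tested genes. A fold change of at least 1 on the log2 scale was reached by 1070 of the genes that rose (6.85% of all tested) and 681 of those that fell (4.36%). The change had opposite signs against the 2 untreated replicates for 2885 genes (18.5%), none of which was called; by unadjusted p under 0.05, 7694 genes passed. The median log2 fold change of all tested genes was 0.11. Rescaling the libraries to a common median moved it by -0.11 to 0.001 and turned the split to 3385 higher and 3588 lower, so 48.5% rather than 59.9% of calls were higher. The count was 9909 without 0 h replicate 2, 8610 without 0 h replicate 1, and 3325 and 3381 without 72 h replicate 1 and 2.

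**Figure D1:**
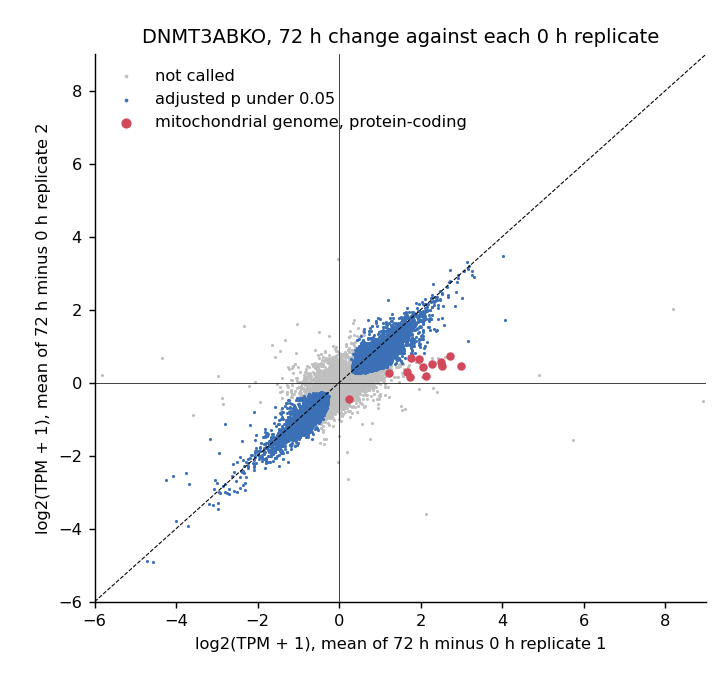
Each point is 1 of the 15629 tested genes, with the mean of the 72 h libraries minus 0 h replicate 1 on the x axis and minus 0 h replicate 2 on the y axis, both in log2(TPM + 1). Called genes (blue) lie in the quadrants where both changes share a sign, and the protein-coding genes of the mitochondrial genome (red) lie to the right of the dashed line of equality, with a median change of 2.07 against replicate 1 and 0.44 against replicate 2.

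The 10 highest genes were ranked by the smaller of their changes against the 2 untreated replicates, so their separation between times follows from the choice. Predicted genes, unnamed transcripts, pseudogenes and small RNA genes were left out of this ranking. Cntfr (chr4:41657498-41697089), the ligand-binding receptor for ciliary neurotrophic factor that signals with the LIF receptor, stood at 2.10 and 3.53 TPM at 0 h and at 48.6 and 49.9 TPM at 72 h. It rose by 4.02 against the first and 3.47 against the second untreated replicate, and by 3.75 ± 0.20 in the model (adjusted p = 0.000605). Nphs1 (chr7:30458315-30487223), which encodes nephrin, a junction protein of kidney podocytes, went from 8.69 and 8.56 TPM to 86.1 and 87.6 TPM. The long noncoding RNA Halr1 (chr6:52102949-52113684) went from 17.4 and 15.2 TPM to 161 and 158 TPM. The log2 fold changes were 3.19 ± 0.10 and 3.22 ± 0.11 (adjusted p = 0.000475 for both).

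The remaining 7 of the 10 highest genes started below 4 TPM. Wt1, a zinc finger transcription factor of kidney and gonad, stood at 1.65 and 2.32 TPM and then at 24.4 and 24.4 TPM. Dpp4, a surface peptidase, stood at 1.98 and 2.93 TPM and then at 28.9 and 28.0 TPM. Col6a5, a collagen VI chain, Platr7, a pluripotency-associated noncoding RNA, and Capn3, a calpain protease, rose by 3.13, 3.16 and 3.05 on the log2 scale. Ccdc194 and Slc47a1, the latter an exporter of organic cations, rose by 2.94 and 2.89. The lowest of the 10 smaller changes was 2.86, for Slc47a1.

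The 10 genes that fell furthest, by the same ranking and with the same kinds of gene left out, included 4 markers of the fibroblast list. Calcoco2 (chr11:96099326-96111964), whose human counterpart is an autophagy receptor, fell from 80.7 and 89.9 TPM to 2.16 and 2.04 TPM. Its log2 fold change was -4.80 ± 0.12 (adjusted p = 0.000427). Ly6a, the surface antigen Sca-1, fell from 65.4 and 84.3 TPM to 1.92 and 1.70 TPM (-4.74 ± 0.16). Pck2, the mitochondrial enzyme that makes phosphoenolpyruvate, fell from 30.4 and 33.5 TPM to 2.47 and 2.42 TPM (-3.25 ± 0.12). Tfap2c, the transcription factor AP-2 gamma, fell from 42.0 and 52.9 TPM to 4.84 and 4.19 TPM (-3.13 ± 0.15).

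Of the other 6, Col6a3, Postn, S100a4 and Col3a1 are on the fibroblast list and fell by 2.97 to 3.83 on the log2 scale. Rhox9 is described with its family. Pagr1b was at 7.58 and 9.15 TPM at 0 h and is listed at 0 in both 72 h libraries, so no fold is given. In KH cells it rose, from 2.41 and 0.97 TPM to 10.7 and 4.35 TPM, and the difference between lines passed (adjusted p = 0.00839, and 0.0545 and 0.0624 without DNMT3ABKO 72 h replicate 1 and 2). Reads of Pagr1b can be shared with its near-identical copy Pagr1a, which makes the value uncertain.

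**Figure D2:**
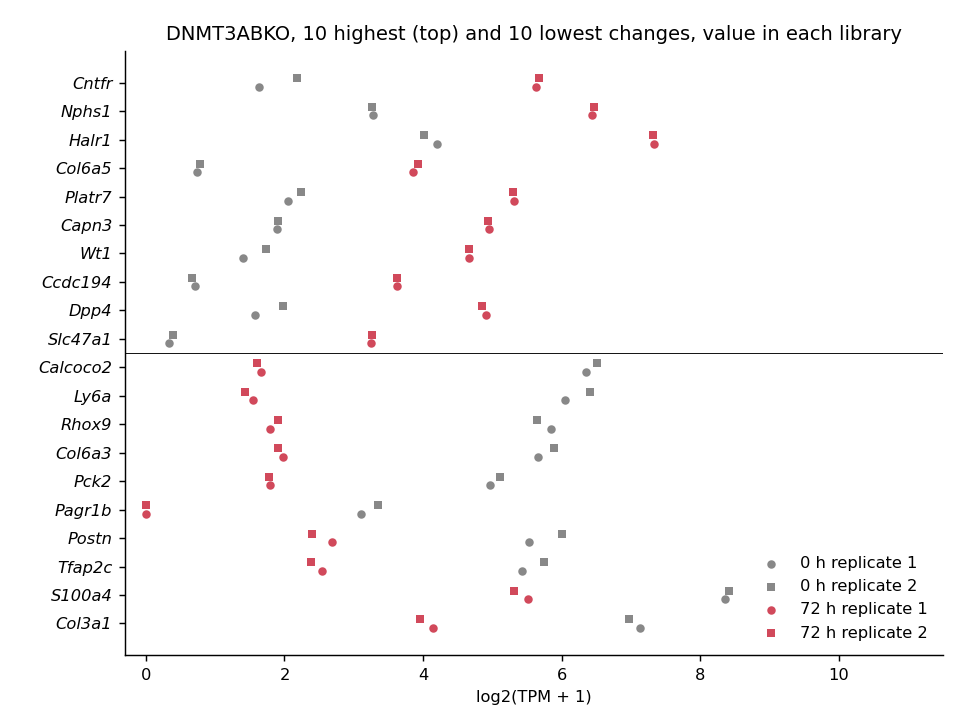
Levels in log2(TPM + 1) of the 10 highest and 10 lowest named genes, 1 marker for each of the 4 DNMT3ABKO libraries (grey for 0 h, red for 72 h, circles for replicate 1, squares for replicate 2). Both red markers lie beyond both grey markers in each row, which the choice of genes requires, and the grey pairs of Cntfr and Ly6a are among those that lie apart.

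Naive pluripotency genes, which define the ground state of ES cells, did not move as one. Of 16 tested members 7 rose and 2 fell, 56.2% called against 38.1% of all genes. The median log2 fold change was 0.34 against 0.11 over all genes. Gbx2, a LIF target that favours self-renewal, rose most, from 10.5 and 10.8 TPM to 72.8 and 69.3 TPM (2.63 ± 0.11, adjusted p = 0.000483). Klf4 went from 59.2 and 80.2 TPM to 161 and 164 TPM, and the orphan receptor gene Nr0b1 from 61.9 and 63.9 TPM to 148 and 150 TPM (1.23 ± 0.16 and 1.23 ± 0.09). Klf5, Fgf4, Dppa5a and Zfp42 also rose, by 0.44 to 0.87. The groups did not overlap for any of these genes, which held for all called genes and for 73.6% of all tested genes. The calls of Zfp42 and Dppa5a were lost without 72 h replicate 1 (adjusted p = 0.215 and 0.132) or replicate 2 (adjusted p = 0.224 and 0.152), and that of Dppa5a also after rescaling to a common median (adjusted p = 0.0706).

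In the other direction, Dppa3, a maternal factor that protects DNA from methylation, fell from 94.8 and 101 TPM to 12.4 and 10.9 TPM (-2.97 ± 0.12, adjusted p = 0.000483). Nanog stood at 227 and 301 TPM at 0 h and at 191 and 180 TPM at 72 h (-0.49 ± 0.15, adjusted p = 0.0477). The Nanog call was lost without 72 h replicate 1 (adjusted p = 0.116) or replicate 2 (adjusted p = 0.208). Esrrb, at 207 and 200 TPM and then 244 and 246 TPM, did not pass (adjusted p = 0.0685), nor did Klf2, Tfcp2l1, Tbx3, Prdm14, Tcl1 and Nr5a2.

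Among 16 general pluripotency genes 10 rose and 1 fell, 68.8% called against 38.1% of all genes, with a median of 0.40. Tdgf1, the Nodal co-receptor Cripto, rose from 278 and 339 TPM to 1012 and 991 TPM (1.70 ± 0.12, adjusted p = 0.000892). Epcam, an epithelial adhesion molecule, rose by 1.06 ± 0.12 and Dppa2, a chromatin factor upstream of Dux, by 1.04 ± 0.22. Pou5f1 rose by 0.41 ± 0.10 (adjusted p = 0.0215). That call was lost after rescaling to a common median (adjusted p = 0.124) and without 72 h replicate 1 or 2 (adjusted p = 0.213 and 0.256). Sox2, at 159 and 211 TPM and then 245 and 231 TPM, did not pass (adjusted p = 0.102). Fbxo15, an Oct4 target, fell from 163 and 175 TPM to 98.8 and 99.2 TPM (-0.76 ± 0.10).

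The LIF and STAT3 pathway, which sustains self-renewal, had 7 of 12 members higher and 1 lower. That was 66.7% called against 38.1% of all genes, with a median of 0.40 over the pathway. Its largest change was the Cntfr receptor gene described above. The kinase genes Pim3, at 84.3 and 78.8 TPM and then 250 and 260 TPM, and Pim1 rose by 1.63 ± 0.10 and 1.02 ± 0.12. Lifr, Stat3, Socs3 and Tyk2 rose by 0.40 to 0.66. These 4 calls were lost without 72 h replicate 1 (adjusted p = 0.0966, 0.299, 0.243 and 0.315) and without replicate 2 (adjusted p = 0.0527, 0.30, 0.22 and 0.432), and that of Tyk2 also with the replicate block (adjusted p = 0.0925). Ptpn11, a phosphatase that relays receptor signals to ERK, fell by 0.67 on the log2 scale, and its call was also lost without 72 h replicate 1 or 2 (adjusted p = 0.0726 and 0.0665).

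Feedback genes of the FGF and ERK pathway were mostly higher at 72 h. Of 14 members 10 rose and 2 fell, 85.7% called against 38.1% of all genes, and the median was 1.21. Egr1, an immediate early transcription factor, went from 44.7 and 54.8 TPM to 182 and 174 TPM (1.83 ± 0.13, adjusted p = 0.000826). Fos went from 27.8 and 28.7 TPM to 85.0 and 83.2 TPM (1.54 ± 0.10). Spry4 and Spry2, inhibitors of receptor tyrosine kinase signalling, rose by 1.40 ± 0.12 and 1.37 ± 0.10, and Dusp6, an ERK phosphatase, by 1.26 ± 0.12. All of these were separated between times, as were all called genes and 73.6% of all tested genes. Fosl1 fell by 0.66 on the log2 scale and Ier3 by 0.40, and both calls were lost without 72 h replicate 1 (adjusted p = 0.12 and 0.383) or replicate 2 (adjusted p = 0.0988 and 0.308). That of Ier3 was also lost with the replicate block (adjusted p = 0.0743).

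Genes of the formative epiblast and of Nodal signalling split. Of 16 members 7 rose and 4 fell, 68.8% called against 38.1% of all genes, with a median of 0.29. Tcf15 rose from 25.1 and 24.99 TPM to 92.4 and 96.7 TPM (1.88 ± 0.10), Foxd3 by 1.76 ± 0.13, and Pou3f1, the Oct6 factor of the epiblast, from 6.64 and 7.01 TPM to 19.8 and 19.9 TPM (1.42 ± 0.12). Fgf5, a marker of the primed epiblast, fell from 3.97 and 4.06 TPM to 1.01 and 0.562 TPM (-1.5 ± 0.17, adjusted p = 0.00268). The Nodal antagonists Lefty2 and Lefty1 fell too. Lefty2 went from 147 and 166 TPM to 66.0 and 67.0 TPM (-1.22 ± 0.11), and Lefty1 from 82.0 and 78.7 TPM to 49.3 and 53.5 TPM (-0.64 ± 0.10, a call lost without 72 h replicate 1, adjusted p = 0.11). Nodal itself did not pass (0.28 ± 0.11, adjusted p = 0.0891), and neither did Otx2.

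Wnt targets also moved both ways, with 6 of 11 higher, 3 lower and a median of 0.60 (81.8% called against 38.1% of all genes). Axin2, a feedback inhibitor that reports Wnt signalling, went from 7.46 and 7.05 TPM to 28.4 and 30.1 TPM (1.87 ± 0.12, adjusted p = 0.000687). Lef1, a Wnt-responsive transcription factor, went from 7.26 and 8.29 TPM to 31.6 and 29.4 TPM (1.84 ± 0.13). T, the mesoderm factor Brachyury, fell from 6.22 and 6.59 TPM to 0.512 and 0.825 TPM (-2.16 ± 0.16). Lgr5, a receptor for R-spondin, fell by 1.34 on the log2 scale and Ccnd1, the cyclin D1 gene, by 0.81.

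Genes of the 2-cell-like state, a rare ES cell state that shares transcripts with the embryo at its first genome activation, were higher at 72 h. Of 19 tested members 15 rose and none fell, 78.9% called against 38.1% of all genes. The median of 1.03 over the tested members was nearly the same against either untreated replicate (1.09 and 1.07). Zscan4c, a member of a telomere-associated zinc finger family, stood at 11.4 and 13.4 TPM and then at 30.6 and 30.2 TPM (1.23 ± 0.13, adjusted p = 0.00196). Duxf3, which encodes the Dux factor that activates this programme, stood at 0.612 and 0.460 TPM and then at 3.38 and 3.88 TPM (1.59 ± 0.15, adjusted p = 0.0017). All 6 Zscan4 genes and all 5 Usp17l genes rose, by 0.95 to 1.35. These are near-identical copies that share reads, so their values are not independent and the level of any single copy is uncertain. Zfp352, Tdpoz4, Eif4e3 and Arap2 did not pass, and Tdpoz1 was not tested. With the replicate block Zfp352 and Tdpoz4 passed (adjusted p = 0.0478 and 0.0186).

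Germline genes that carry promoter methylation in somatic cells rose as well. Of 23 tested members 16 rose and 1 fell, 73.9% called against 38.1% of all genes, with a median of 0.98. Dazl, an RNA-binding protein of germ cells, went from 7.04 and 12 TPM to 67.2 and 59.8 TPM. It rose by 2.65 ± 0.23 (adjusted p = 0.0014), although the untreated replicates lay apart. Stra8, the retinoic acid-responsive factor of meiotic entry, went from 5.23 and 3.72 TPM to 30.3 and 28.9 TPM (2.50 ± 0.17, adjusted p = 0.000774). Sycp1, a synaptonemal complex protein, rose by 1.88 ± 0.17. Hormad1, which marks unsynapsed meiotic chromosomes, went from 25.7 and 32.9 TPM to 84.9 and 72.8 TPM (1.40 ± 0.16). Mael and Piwil2, of the piRNA pathway, rose by 1.39 and 1.32. Ddx4, the germ cell helicase Vasa, overlapped between times and did not pass (0.20 ± 0.18, adjusted p = 0.406). Hormad2 was the single member that fell (-0.83 ± 0.16, adjusted p = 0.012).

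RefSeq promoter windows (GRCm38.p6, 250 bases before to 50 bases after the gene start) were found for 20 of the 23 tested germline genes. The E-box CACGTG, which is its own reverse complement, occurred in 12 of the 20 (60%) and in 7.24% of all 27025 promoters. It was in 7 of the 15 called members with a window. The E2F6-type sequence GGCGGGAA, on either strand, occurred in 4 of the 20 (20%) and in 2.24% of all promoters. It was in 2 of the 15 called members with a window. Ddx4, which did not pass, held both sequences as well. Hormad1 is shown because it held both sequences and rose at a high level; the E-boxes are in capitals, and the window lies at chr3:95559427-95559726 on the plus strand. A match describes letters in this window and not binding.
Hormad1: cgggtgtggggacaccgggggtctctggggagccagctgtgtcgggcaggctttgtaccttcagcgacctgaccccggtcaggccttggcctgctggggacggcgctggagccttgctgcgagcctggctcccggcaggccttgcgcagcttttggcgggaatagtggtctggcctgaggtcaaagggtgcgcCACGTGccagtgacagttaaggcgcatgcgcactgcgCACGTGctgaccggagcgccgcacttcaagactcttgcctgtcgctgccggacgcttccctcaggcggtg

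The X-linked Rhox homeobox cluster, another group silenced by methylation, went mostly the other way. Of 5 tested members 3 fell and 1 rose, 80% called against 38.1% of all genes. Rhox9 fell from 56.4 and 49.0 TPM to 2.45 and 2.76 TPM (-3.89 ± 0.13, adjusted p = 0.000475), and Rhox6 from 58.3 and 49.1 TPM to 6.36 and 6.50 TPM (-2.87 ± 0.13). Rhox5, an androgen-responsive member, fell from 533 and 416 TPM to 183 and 178 TPM (-1.38 ± 0.14). Rhox13 rose from 0.796 and 0.641 TPM to 2.64 and 3.49 TPM (1.24 ± 0.17).

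Imprinted genes, which are expressed from 1 parental allele, were split evenly, with 8 of 25 higher, 8 lower and a median of 0.16. In all 64% were called, against 38.1% of all genes. The maternally expressed noncoding RNAs of the Dlk1-Dio3 region rose together. Meg3 went from 107 and 104 TPM to 273 and 281 TPM (1.39 ± 0.09), and Rian and Mirg rose by 1.36 ± 0.14 and 2.03 ± 0.11. Dlk1, the paternally expressed gene of that region, did not pass (-0.09 ± 0.14, adjusted p = 0.628). Peg10, a retrotransposon-derived placental gene, went from 26.4 and 36.0 TPM to 123 and 122 TPM (1.96 ± 0.16, adjusted p = 0.00122). H19 fell from 46.2 and 40.3 TPM to 19 and 15 TPM (-1.31 ± 0.15), and Snrpn by 0.82 on the log2 scale.

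Among 18 tested genes of the methylation machinery 6 rose and none fell, 33.3% called against 38.1% of all genes. Dnmt3l, the catalytically inactive partner of Dnmt3a and Dnmt3b, went from 236 and 238 TPM to 662 and 658 TPM (1.48 ± 0.09, adjusted p = 0.00066). Tet1 and Tet2, which oxidise methylcytosine, rose by 1.19 ± 0.14 and 1.26 ± 0.19, and Tet3 from 4.30 and 3.83 TPM to 8.59 and 8.03 TPM (0.88 ± 0.13). Zfp57, which protects imprints, rose by 1.43 ± 0.13. The maintenance genes Dnmt1 (0.12 ± 0.09, adjusted p = 0.351) and Uhrf1 (-0.05 ± 0.10, adjusted p = 0.736) did not pass.

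Genes of sterol synthesis and uptake, which SREBP factors control downstream of mTOR, were lower. Of 24 tested genes 21 fell and none rose, 87.5% called against 38.1% of all genes, with a median of -0.99. Hmgcs1, an early enzyme of the mevalonate pathway, went from 110 and 139 TPM to 62.8 and 56.0 TPM (-1.05 ± 0.14). Dhcr7, which completes cholesterol, fell from 29.3 and 30.9 TPM to 8.04 and 7.11 TPM (-1.86 ± 0.12). Idi1 and Fdps, which make isoprenoid precursors, fell by 1.56 and 1.45 on the log2 scale. Acat2 (-0.37 ± 0.15, adjusted p = 0.108) and Tm7sf2 (-0.16 ± 0.12, adjusted p = 0.312) did not pass.

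A sterol regulatory element, written TCACNCCAC and searched on both strands, was found in the promoter window of 1 of the 17 sterol genes with a window (5.88%) and in 1.22% of all promoters. That gene is Hmgcs1, which is shown with the match in capitals (chr13:119690101-119690400, plus strand, 137 bases before the start).
Hmgcs1: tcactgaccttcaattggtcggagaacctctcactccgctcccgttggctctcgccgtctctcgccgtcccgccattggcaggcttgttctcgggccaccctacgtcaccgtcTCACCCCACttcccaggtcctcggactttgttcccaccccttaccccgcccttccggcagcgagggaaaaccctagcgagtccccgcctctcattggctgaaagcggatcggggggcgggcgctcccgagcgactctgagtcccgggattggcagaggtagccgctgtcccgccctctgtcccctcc

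In fatty acid metabolism 9 of 18 genes fell and 2 rose, 61.1% called against 38.1% of all genes, with a median of -0.41. The desaturase genes fell most. Fads2 went from 44.9 and 51.0 TPM to 5.72 and 5.35 TPM (-2.90 ± 0.12, adjusted p = 0.000503), Scd1 from 24.4 and 35 TPM to 3.52 and 3.45 TPM (-2.75 ± 0.19) and Scd2 by 1.86 ± 0.13 in the same direction. Fasn, the fatty acid synthase, did not pass (-0.19 ± 0.10, adjusted p = 0.194). Cpt1a, which admits fatty acids to mitochondria for oxidation, went from 12.1 and 17.2 TPM to 29.4 and 28.5 TPM (0.96 ± 0.18), and the elongase Elovl6 rose by 1.15 ± 0.15.

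Glycolysis was lower at most steps. Of 18 genes 13 fell and 2 rose, 83.3% called against 38.1% of all genes, with a median of -0.83. Ldha, which converts pyruvate to lactate, went from 734 and 774 TPM to 196 and 195 TPM (-1.94 ± 0.09, adjusted p = 0.000534). Tpi1 and Pgk1 fell by 1.69 and 1.5 on the log2 scale, and the glucose transporter gene Slc2a1 by 1.05. The 2 hexokinase genes went in opposite directions. Hk1 fell from 28.1 and 27.6 TPM to 7.52 and 7.26 TPM (-1.78 ± 0.11). Hk2 rose from 121 and 124 TPM to 170 and 172 TPM (0.48 ± 0.09, adjusted p = 0.0117), a call lost without 72 h replicate 1 or 2 (adjusted p = 0.176 and 0.197). Pdk1, which closes pyruvate dehydrogenase, rose from 33.6 and 37.6 TPM to 116 and 112 TPM (1.65 ± 0.11).

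Genes of amino acid supply that Atf4 activates under stress fell. Of 19 tested members 13 fell and none rose, 68.4% called against 38.1% of all genes. The median was -1.30 against either untreated replicate. Psat1 and Phgdh, of serine synthesis, went from 216 and 249 TPM to 51.0 and 48.8 TPM (-2.19 ± 0.11) and from 122 and 107 TPM to 27.5 and 29.2 TPM (-1.97 ± 0.11). Nupr1, a stress-induced chromatin protein, went from 38.6 and 39.0 TPM to 6.41 and 6.47 TPM (-2.42 ± 0.11), and Trib3, a pseudokinase, from 19.13 and 16.1 TPM to 3.80 and 4.04 TPM (-1.92 ± 0.14). The transcript of Atf4 itself was at 218 and 216 TPM and then at 263 and 262 TPM and did not pass (0.27 ± 0.09, adjusted p = 0.0576). Slc3a2, Cth and Ddit3 did not pass either.

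The core of the amino acid response element, written TGATGNAA and searched on both strands, was found in 6 of the 16 members with a promoter window (37.5%) and in 4.06% of all promoters. It was in 5 of the 11 called members with a window. Pck2 and Nupr1 are shown because they had the largest falls on this list. They are written in the gene's own direction. The match, in capitals, is on the opposite strand in both, 103 bases before the start of Pck2 (chr14:55540016-55540315, plus strand) and 110 bases before the start of Nupr1 (chr7:126625421-126625720, minus strand).
Pck2: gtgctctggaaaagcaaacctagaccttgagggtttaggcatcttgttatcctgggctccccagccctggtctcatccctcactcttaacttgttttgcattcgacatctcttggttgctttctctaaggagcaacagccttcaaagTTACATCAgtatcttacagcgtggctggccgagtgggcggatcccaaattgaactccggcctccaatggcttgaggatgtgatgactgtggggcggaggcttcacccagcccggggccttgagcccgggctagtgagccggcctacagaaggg
Nupr1: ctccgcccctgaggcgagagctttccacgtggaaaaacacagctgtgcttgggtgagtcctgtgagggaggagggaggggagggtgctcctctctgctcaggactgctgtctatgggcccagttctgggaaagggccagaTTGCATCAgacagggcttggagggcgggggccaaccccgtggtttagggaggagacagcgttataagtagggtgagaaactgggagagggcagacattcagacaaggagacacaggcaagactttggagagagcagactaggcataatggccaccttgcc

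The mTOR pathway's own genes moved in both directions, with 6 of 22 higher and 4 lower, 45.5% called against 38.1% of all genes. Ddit4, a stress-induced inhibitor of mTORC1, fell from 36.1 and 34.2 TPM to 5.52 and 4.44 TPM (-2.60 ± 0.14, adjusted p = 0.000605). Castor1, the arginine sensor, fell from 53 and 53.3 TPM to 15.1 and 15.6 TPM (-1.73 ± 0.10), and Sesn2, the leucine sensor, by 0.94 on the log2 scale. Deptor, a subunit that restrains mTOR, rose by 1.18 ± 0.14 and Pdcd4, a translation inhibitor degraded after S6K phosphorylation, by 1.14 ± 0.12. Mtor went from 19.6 and 22.5 TPM to 36.4 and 37.2 TPM (0.78 ± 0.12).

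Lysosomal genes, which Tfeb and Tfe3 activate through the CLEAR element, did not move as one. Of 24 members 8 fell and 4 rose, 50% called against 38.1% of all genes, and the median was 0.09 against 0 h replicate 1 and -0.18 against replicate 2. Mcoln1, a lysosomal calcium channel, rose from 14.1 and 15.6 TPM to 30.9 and 31.7 TPM (1.03 ± 0.11, adjusted p = 0.00241). The protease gene Ctsb fell from 71.4 and 84.4 TPM to 27.2 and 27.4 TPM (-1.47 ± 0.12), and the tetraspanin gene Cd63 by 1.14 on the log2 scale. The sequence TCACGTGA was in 3 of 19 lysosomal promoter windows (15.8%) and in 1.01% of all promoters. The windows were those of Mcoln1, of Gla, which did not pass, and of the protease gene Ctsd, which fell by 0.60 on the log2 scale. The Ctsd call was lost without 72 h replicate 1 or 2 (log2 fold changes of -0.61 and -0.60). The sequence TCACGTGA overlaps the E-box above.

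Of 22 genes of autophagy and the Tfe3 branch 6 fell and 3 rose, 40.9% called and so near the 38.1% of all genes. Beside Calcoco2, Tfeb fell from 28.6 and 29.2 TPM to 14.9 and 15.2 TPM (-0.90 ± 0.11), and Sqstm1, the receptor p62, by 0.70 on the log2 scale. Optn, an autophagy receptor for mitochondria, rose from 4.84 and 4.53 TPM to 14.7 and 15.8 TPM (1.52 ± 0.12). Tfe3 did not pass (0.46 ± 0.15, adjusted p = 0.0538, and 0.0271 with the replicate block).

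Few ribosomal protein genes, whose translation mTOR promotes, passed the test. Of 40 cytosolic ribosomal protein genes 4 rose and none fell, 10% against 38.1% of all genes, and the median was 0.09 as deposited and -0.03 after rescaling to a common median. Of those 4, Rps20 and Rps15 lost their calls after rescaling (adjusted p = 0.11 and 0.182) and with the replicate block (adjusted p = 0.0751 and 0.065). Rpl23, Rps20 and Rps15 lost theirs without a filter on low values (adjusted p = 0.068, 0.0694 and 0.138). The same genes lost their calls without 72 h replicate 1 (log2 fold changes of 0.41, 0.38 and 0.36) and without 72 h replicate 2 (0.45, 0.31 and 0.35). Among 24 genes of RNA polymerase I and ribosome assembly 2 rose and 1 fell, 12.5% called, with medians of 0.02 and -0.10. Myc, which drives ribosome production, rose from 38.2 and 35.4 TPM to 125 and 126 TPM (1.74 ± 0.10, adjusted p = 0.00066). Mycn stood at 139 and 138 TPM and then at 101 and 101 TPM (-0.46 ± 0.09, adjusted p = 0.0136), a call lost without 72 h replicate 1 or 2 (adjusted p = 0.217 and 0.214). Of the 11 genes of the Myc family 4 rose and 2 fell, 54.5% called.

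Of 18 G1 cyclins and CDK inhibitors, which govern entry into S phase, 6 fell and 4 rose, 55.6% called against 38.1% of all genes. The median was 0.04 as deposited and -0.07 after rescaling. Ccnd2 went from 91.5 and 109 TPM to 42.0 and 38.9 TPM (-1.29 ± 0.13), and Ccnd1 and Ccnd3 fell by 0.81 and 0.75 on the log2 scale. Cdkn1a, the p53-induced inhibitor p21, went from 108 and 115 TPM to 43.1 and 39.2 TPM (-1.42 ± 0.11, adjusted p = 0.00101). Cdkn1c, the imprinted inhibitor p57, rose from 18.0 and 21.3 TPM to 51.8 and 52.6 TPM (1.37 ± 0.12), and Cdkn1b, the inhibitor p27, by 0.69 ± 0.13. The Cdkn1b call was lost without 72 h replicate 1 or 2 (adjusted p = 0.101 and 0.062).

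Of 20 p53 targets 12 fell and 3 rose, 75% called against 38.1% of all genes, with a median of -0.79. Phlda3 went from 62.9 and 62.4 TPM to 22 and 21.8 TPM (-1.48 ± 0.10) and Mdm2, the p53 ligase, from 111 and 123 TPM to 63.1 and 63.5 TPM (-0.87 ± 0.10). Trp53 itself did not pass (0.10 ± 0.11, adjusted p = 0.505). Ei24 and Pmaip1, which promote cell death, rose by 1.15 and 0.79.

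Genes of the mitochondrial genome depend on the choice of untreated replicate. Of 13 genes 2 rose, the complex I gene mt-Nd4l and the complex IV gene mt-Co3, 15.4% called against 38.1% of all genes. The median was 1.24 in the model, 2.07 against 0 h replicate 1 and 0.44 against 0 h replicate 2. mt-Nd3, a complex I subunit, was at 69.2 and 408 TPM at 0 h and at 646 and 485 TPM at 72 h (1.73 ± 0.76, adjusted p = 0.124). In the 4 KH libraries its range was 314 to 458 TPM. Both calls were lost when low genes were not filtered out (adjusted p = 0.148 for mt-Nd4l and 0.183 for mt-Co3). With the replicate number as a block 12 of the genes passed, all higher. Hist2h2aa1 had the widest gap among tested protein-coding genes other than predicted ones, with 0 and 71.5 TPM at 0 h and 285 and 300 TPM at 72 h. H1fx was listed at 0 and 25 TPM, Hgs at 3.22 and 25.6 TPM and Zc3h11a, by its shorter gene model, at 34.3 and 4.72 TPM in the untreated replicates, and none of the 4 genes passed. With the replicate block, which leaves 1 residual degree of freedom per gene, Hist2h2aa1, H1fx and Hgs did (adjusted p = 6.07e-171, 4.24e-34 and 4.9e-07). Such small values rest on a spread borrowed from other genes, with the 0 h gap assigned to replicate number. Same-numbered libraries did not deviate together (correlation -0.10), so these values are not read as strong evidence.

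**Figure D3:**
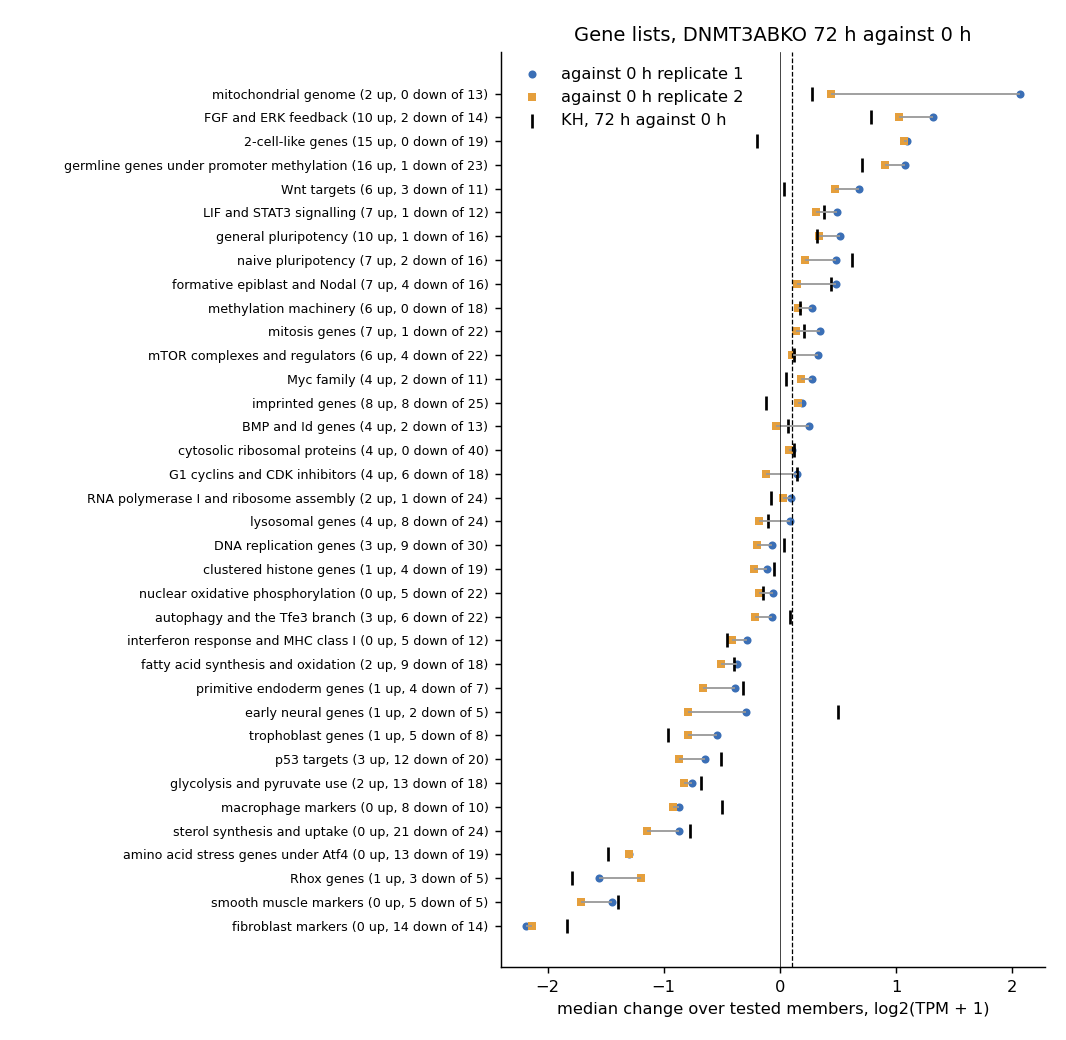
Median change over the tested members of each gene list in log2(TPM + 1), with circles against 0 h replicate 1, squares against 0 h replicate 2, black ticks for KH cells, and a dashed line at the median of all genes (0.11). The lists run from the fibroblast markers (-2.16 in the model) to the mitochondrial genome (1.24), where the circle and the square lie furthest apart.

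The response of the knockout was then tested against that of KH cells in 1 model of the 8 libraries, which share no samples between the lines. This model pools 1 spread per gene over both lines. The 0 h spread was wider in the knockout (residual SD 0.272) than in KH cells (0.178). The pooled spread can therefore be too small for the knockout, and the p-values of the differences too low. Of 15615 genes, 189 (1.21%) responded higher in DNMT3ABKO than in KH cells and 97 (0.621%) lower, 1.83% in all. Blocking on replicate number gave 180. The count was 3 and 2 without DNMT3ABKO 72 h replicate 1 and 2, and 14 and 3 without KH 72 h replicate 1 and 2. It was 88 and 40 without KH 0 h replicate 1 and 2, and 564 and 1814 without DNMT3ABKO 0 h replicate 1 and 2. Of 50 called differences of named genes, 49 lost their call without either DNMT3ABKO 72 h library. The exception was Trh, which kept its call in all 8 omissions.

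Trh encodes the precursor of thyrotropin-releasing hormone. It fell from 480 and 493 TPM to 148 and 147 TPM in DNMT3ABKO cells and stood at 330 and 370.5 TPM and then at 357 and 362 TPM in KH cells. The difference between the responses was -1.76 ± 0.11 (adjusted p = 0.00419, and at most 0.0487 with any 1 library left out). Tfap2c fell in both lines, by 3.13 in the knockout and by 1.18 in KH cells, where it went from 50.6 and 60.1 TPM to 24.7 and 22.9 TPM (difference -1.95 ± 0.19, adjusted p = 0.0083). Fam169b went from 3.48 and 4.57 TPM to 0.869 and 1.13 TPM in the knockout and had a log2 fold change of 0.36 in KH cells (difference -1.68 ± 0.27, adjusted p = 0.0257). Pax6, a factor of eye and neural development, did not pass in the knockout, at 6.84 and 10.1 TPM and then 5.28 and 5.55 TPM, and rose from 1.80 and 2.51 TPM to 7.09 and 8.40 TPM in KH cells (difference -2.02 ± 0.26, adjusted p = 0.0123). Without DNMT3ABKO 72 h replicate 1 the adjusted p was 0.0545 for Tfap2c, 0.127 for Fam169b and 0.075 for Pax6. With the replicate block Pax6 passed in the knockout as well, on the lower side (adjusted p = 0.0267).

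Among genes with a higher response in the knockout, Peg10 had the largest difference of the named genes. KH cells held it at 79.4 and 87.2 TPM and then at 65.6 and 64.8 TPM, so all KH values lay between the knockout's 0 h and 72 h values (difference 2.30 ± 0.19, adjusted p = 0.0061). Tsx, an X-linked gene near the X inactivation centre, went from 1.15 and 1.35 TPM to 8.21 and 8.16 TPM in the knockout and stayed between 0.793 and 1.73 TPM in KH cells (difference 2.21 ± 0.27, adjusted p = 0.01). Wt1 rose in both lines, with KH values of 3.07 and 3.59 TPM and then 8.78 and 7.71 TPM (difference 2.00 ± 0.19, adjusted p = 0.00816). Hopx, an atypical homeodomain gene, rose by 0.80 in the knockout and fell by 1.00 on the log2 scale in KH cells (difference 1.81 ± 0.26, adjusted p = 0.0171). Without DNMT3ABKO 72 h replicate 1 the adjusted p was 0.0545 for Peg10 and Wt1, 0.0671 for Tsx and 0.0928 for Hopx.

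Of the 19 tested 2-cell-like genes 12 responded higher in the knockout and none lower, against 1.21% and 0.621% of all genes. These 12 were the Zscan4 genes, the Usp17l genes and Duxf3. Copies within each of the Zscan4 and Usp17l families share reads, so the 12 are not independent members. Their summed level was 92.9 and 106 TPM at 0 h and 235 and 235 TPM at 72 h in the knockout, and 9.03 and 11 TPM and then 5.77 and 6.40 TPM in KH cells. Zscan4f, for example, stood at 16.1 and 20.5 TPM and then at 47.5 and 45.7 TPM in the knockout and at 0.672 and 0.986 TPM and then 0.216 and 0.305 TPM in KH cells (difference 1.84 ± 0.20, adjusted p = 0.00839). All 12 lay under 1 TPM in every KH library, where the log2(TPM + 1) scale shows little of a change. The same held for 78 of the 189 genes with a higher response (41.3%), for 2 of the 97 with a lower response (2.06%) and for 1.17% of all tested genes. With a pseudocount of 0.1 TPM, 7 of the 12 and 17 of the 78 kept their call. Usp17la and Usp17ld lost theirs with the replicate block (adjusted p = 0.138 and 0.0751).

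Germline genes had positive median changes in both lines. The median was 0.98 in the knockout and 0.70 in KH cells, and 1 of the 23 members had a called difference, against 1.83% of all genes. That member was Stra8, which stood at 1.59 and 1.55 TPM and then at 3.07 and 3.47 TPM in KH cells (difference 1.77 ± 0.20, adjusted p = 0.00887, and 0.065 without DNMT3ABKO 72 h replicate 1). Dazl stood at 1.99 and 2.30 TPM and then at 7.16 and 5.83 TPM in KH cells, and its difference did not pass (1.41 ± 0.30, adjusted p = 0.0643).

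Of the 16 naive pluripotency genes 4 responded lower in the knockout and none higher, against 0.621% and 1.21% of all genes. Nanog stood at 189 and 212 TPM and then at 275 and 273 TPM in KH cells, so both knockout libraries lay above the KH libraries at 0 h and below them at 72 h (difference -0.95 ± 0.18, adjusted p = 0.049). Prdm14, a repressor that protects the naive state, rose in KH cells from 3.76 and 4.95 TPM to 10.3 and 11 TPM, against 6.21 to 6.88 TPM in all knockout libraries (difference -1.21 ± 0.18, adjusted p = 0.0175). Tcl1, a coactivator of the AKT kinase, rose in KH cells from 39.9 and 42.3 TPM to 64.4 and 64.9 TPM, against 40.5 to 46.0 TPM in the knockout (difference -0.77 ± 0.11, adjusted p = 0.0148). Dppa3 fell in both lines and further in the knockout (difference -1.33 ± 0.14, adjusted p = 0.00839). Without DNMT3ABKO 72 h replicate 1 these adjusted p were 0.176, 0.0882, 0.101 and 0.0545. With the replicate block those of Nanog and Tcl1 were 0.0642 and 0.0646.

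**Figure D4:**
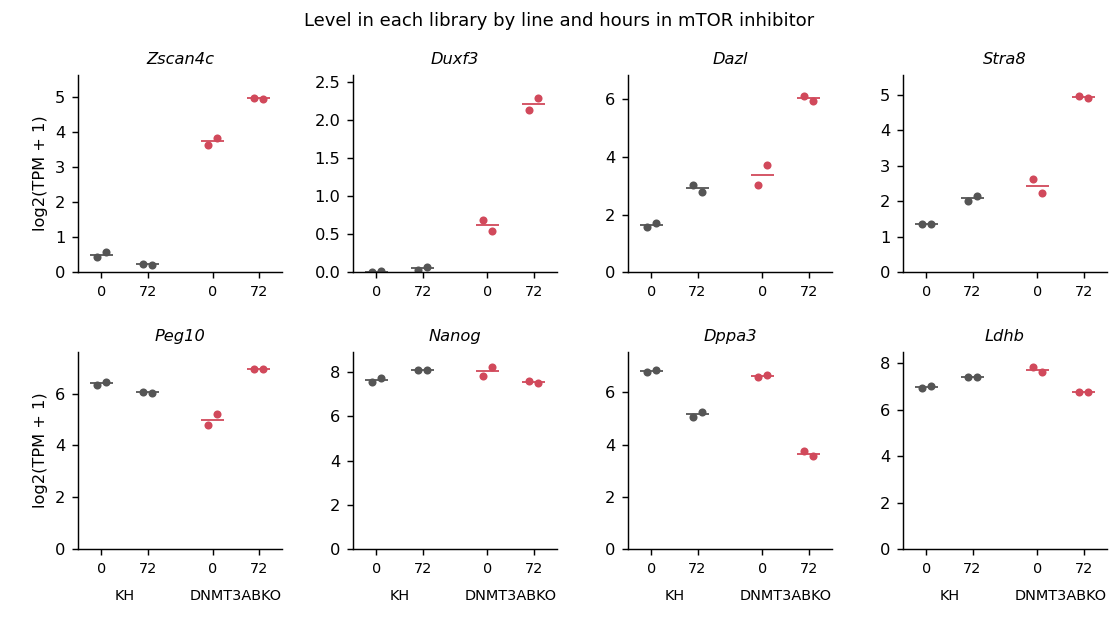
Levels in log2(TPM + 1) of 8 genes at 0 and 72 h, 1 point per library and a short line at the mean of the 2 libraries, for KH (grey) and DNMT3ABKO (red) cells. Zscan4c and Duxf3 rose in DNMT3ABKO cells and lay under 1 TPM in all KH libraries, whereas Nanog and Ldhb were above the KH libraries at 0 h and below them at 72 h in DNMT3ABKO cells.

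Further called differences fell on members of other lists, of which some are given here. Of the 16 formative and Nodal genes 3 responded higher and 2 lower, against 1.21% and 0.621% of all genes. Of the 18 glycolysis genes 1 responded higher and 3 lower. Cntfr and Egr1 responded higher in the knockout, by 1.70 and 1.03, as did the Wnt targets Lef1 and Axin2, by 1.15 and 0.84. Dnmt3l and Tet3 responded higher by 0.64 and 0.82. With the replicate block the adjusted p was 0.0876 for Axin2, 0.108 for Dnmt3l and 0.113 for Tet3. Calcoco2, which fell by 3.57 in KH cells, and Rhox9, which fell by 2.64 there, responded lower by -1.23 and -1.25. Ldhb, the lactate dehydrogenase subunit of oxidative tissues, fell from 226 and 198 TPM to 107 and 106 TPM in the knockout and rose from 121 and 130 TPM to 169 and 169 TPM in KH cells (difference -1.41 ± 0.12, adjusted p = 0.0061). Without DNMT3ABKO 72 h replicate 2 the adjusted p of Ldhb was 0.0624.

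**Figure D5:**
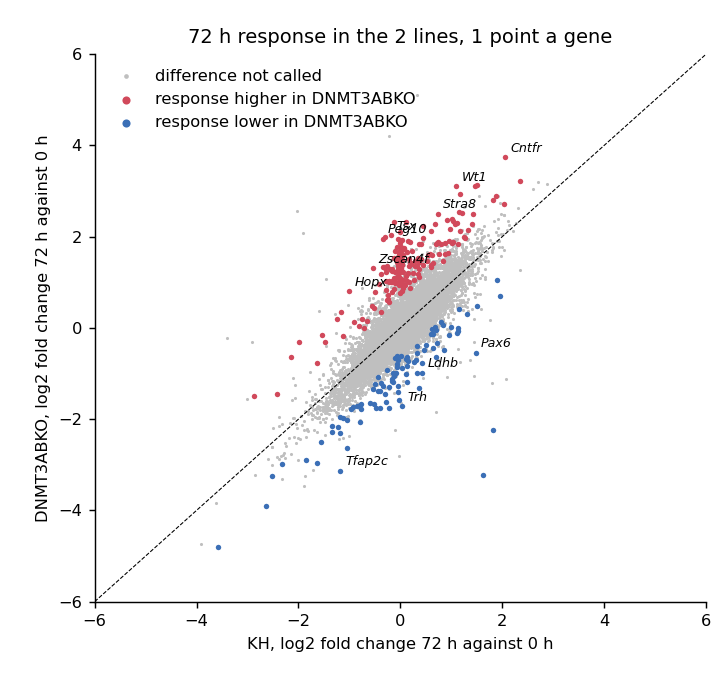
Log2 fold change from 0 to 72 h in KH cells on the x axis and in DNMT3ABKO cells on the y axis for the 15353 genes tested in both, with genes of a called difference in colour (186 higher, 96 lower in the plot). Coloured points lie off the line of equality, Peg10 above it and Trh and Pax6 below it.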

How the data were processed

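Total RNA of sorted viable cells was sequenced after removal of ribosomal RNA. The submitters' processing notes name cutadapt 2.4, STAR 2.7.3a, StringTie 2.0 and mm10, and later versions of both aligner and assembler stand in the study's methods. The deposited values are TPM per gene, computed by the authors with StringTie for each library; counts and depth were not used here, so the count test of the study's methods could not be applied. TPM of rows that repeat a gene identifier were summed. Genes whose level averaged 1 TPM or more in the compared libraries were tested on log2(TPM + 1), so fold changes of low genes are understated. The test was limma 3.58.1 in R 4.3.3, with Benjamini-Hochberg adjustment and a threshold of 0.05, fitted on the 4 DNMT3ABKO libraries alone because their 0 h replicates vary most. The difference between lines was the interaction in the 8 libraries at 0 and 72 h, with 1 spread per gene pooled over both lines. All ± values beside fold changes are standard errors, with n = 2 libraries per group. The 36 gene lists and the members were chosen with earlier results of these data known.

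Genes were named by rule. These were the targeted genes, and the 10 highest and 10 lowest called genes by their smaller change against either 0 h replicate. Each list gave its leading genes and the 3 called members highest and lowest. The 5 largest called differences between lines in each direction were taken where every DNMT3ABKO change lay beyond every KH change. The 5 widest 0 h gaps were taken among protein-coding genes. Predicted genes, unnamed transcripts, pseudogenes and small RNA genes were left out of these rankings, except within lists. A further 41 genes were named after their values were seen. The alternatives were all 12 libraries in the model, median-ratio scaling, no filter on low values, a pseudocount of 0.1 TPM, a replicate block and each library left out; the crossed block was chosen after seeing the data. The replicate block rests on the study's statement that time points of a replicate were handled in parallel; same-numbered samples did not deviate together (correlation -0.10). Blocked values stand beside the calls they change. The test was tried on simulated data first. Gene identifiers matched GENCODE M21 for 54409 of 54446. Promoter sequences are from RefSeq. Figures were drawn with matplotlib 3.10.9. Some list members are not reported here by name.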

Additional observations from a re-analysis of the deposited data

Results flagged for a closer look

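The 72 h response differed between DNMT3ABKO and KH cells, by the interaction test, for 286 genes, of which 189 responded higher and 97 lower in DNMT3ABKO cells. The differences picked out by size, on the log2(TPM + 1) scale, were 2.30 for Peg10, 2.21 for Tsx, 2.00 for Wt1, 1.84 for Zscan4f and 1.81 for Hopx on the higher side. On the lower side they were -2.02 for Pax6, -1.95 for Tfap2c, -1.76 for Trh and -1.68 for Fam169b. Pagr1b passed on the lower side too and is given no size, since it is listed at 0 in both DNMT3ABKO 72 h libraries. The choice of these genes required every DNMT3ABKO change to lie beyond every KH change. Zscan4f shares reads with its near-identical copies and lay under 1 TPM in all 4 KH libraries. With 2 libraries per group no set of samples was large enough to be screened for single outlying values.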

How the results depend on the processing

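The 5948 calls between 0 and 72 h were 8792 with all 12 libraries in the model, 4102 without a filter on low values and 5810 with a pseudocount of 0.1 TPM, and ranged from 3325 to 9909 with 1 library left out. At an absolute log2 fold change of at least 1 there were 1751. With the replicate number as a block there were 6257 calls, and 7527 with the numbers crossed. The block changed the call of 16 of 267 named genes, 15 of 50 called differences lost theirs, and no other named call changed. The 286 differences between lines became 652 with all 12 libraries, 629 after median-ratio scaling (345 higher and 284 lower), 447 without a filter, 127 with a pseudocount of 0.1 TPM, 180 with the replicate block and 179 at an absolute log2 value of at least 1, and ranged from 2 to 1814 with 1 library left out. With 1 library left out, the estimated spread came only from the groups that kept both libraries. Its part in these ranges was not tested. Of 267 named genes, 267 kept direction and call with a pseudocount of 0.1 TPM, 254 under median-ratio scaling, 251 with the block and 230 without a filter; without 72 h replicate 1 or 2, 50 and 48 lost their call. Klf5, Dppa2, Lgr5, Hormad2 and Cpt1a lost theirs without a filter, with adjusted p of 0.0777, 0.084, 0.0737, 0.0582 and 0.0583. Without DNMT3ABKO 0 h replicate 1, Ccnb1 and Hgs turned to -0.21 and -0.25 (0.27 and 2.41 without replicate 2), and without 0 h replicate 2 the shorter gene model of Zc3h11a turned to -1.03 (1.60 without replicate 1). Each compared group had 2 libraries, 1 of the 0 h libraries stood apart, and depth is unknown.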

Other observations

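Lineage and cell cycle genes outside the comparisons above moved in both directions. Sox1, an early neural factor, rose from 0.478 and 0.599 TPM to 6.59 and 6.12 TPM (2.26 ± 0.14, adjusted p = 0.000706). Nes and Tubb3 fell by 1.53 and 1.35 on the log2 scale. Of 5 tested neural genes 1 rose and 2 fell, 60% called against 38.1% of all genes. Of 7 primitive endoderm genes 4 fell and 1 rose, 71.4% called. The collagen IV genes Col4a1 and Col4a2, which fibroblasts express too, fell by 1.69 and 1.68. Of 8 trophoblast genes 5 fell and 1 rose, 75% called. Among them the keratin gene Krt8 went from 6.89 and 7.29 TPM to 1.93 and 2.03 TPM (-1.44 ± 0.13), and Gata2 fell by 1.02. Summed fibroblast markers moved with all 3 lists, and their part was not tested.

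In the BMP and Id list 4 of 13 genes rose and 2 fell, 46.2% called against 38.1% of all genes. The median was 0.10 as deposited and -0.01 after rescaling. Bmp4 went from 11.7 and 12.8 TPM to 28.2 and 29.0 TPM (1.16 ± 0.12), and its target Id3 from 97.4 and 86.5 TPM to 42.2 and 40.5 TPM (-1.13 ± 0.11).

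Of 30 DNA replication genes 9 fell and 3 rose, 40% called and so near the 38.1% of all genes. Rrm2, the regulated subunit of ribonucleotide reductase, went from 242 and 288 TPM to 114 and 113 TPM (-1.21 ± 0.12). Of 22 mitosis genes 7 rose and 1 fell, 36.4% called. Top2a, which untangles chromosomes, went from 252 and 308 TPM to 485 and 464 TPM (0.77 ± 0.12), and the checkpoint kinase gene Ttk rose by 0.88. Of 22 nuclear genes of oxidative phosphorylation 5 fell and none rose, 22.7% called against 38.1% of all genes. The median was -0.15, and with the replicate block 2 fell. Of 19 histone genes 4 fell and 1 rose, 26.3% called. These are multicopy genes that can share reads, so single values are uncertain. Of 12 interferon and MHC class I genes 5 fell and none rose, 41.7% called and so near the 38.1% of all genes. Isg15, a ubiquitin-like interferon target, went from 6.50 and 3.96 TPM to 0.80 and 0.875 TPM (-1.73 ± 0.22, adjusted p = 0.00353).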
